A study of Rattus norvegicus with 30 samples.

Results

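The kidney cortex (Cx) of male Sprague-Dawley rats was compared between 21 and 14 d on a high-salt diet (HS, 4.0% NaCl), to show how gene expression moved on in the third week of salt feeding. Of the 30 mRNA sequencing libraries in the series, 10 were taken by their labels alone: 5 from rats fed for 14 d (HS14, replicates 6 to 10) and 5 from rats fed for 21 d (HS21, replicates 11 to 15). Rats kept on a low-salt diet (LS, 0.4% NaCl) gave 5 further Cx libraries, which appear here as levels set beside the others and in an alternative fit, and the outer medulla (OM) gave 15 libraries of the same groups. The tissue came from the right kidney. The methods give an age, 10 to 11 wk, for rats fitted with blood flow probes, and it is unclear whether it holds for all of these rats. Read pairs counted on genes numbered 15379007 to 21842843 per library in HS14 (median 16288785) and 14641135 to 15627211 in HS21 (median 15333041). The methods describe 5 kidneys per group, while the labels number libraries only, so *P* values measure the spread between these libraries.

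The cortex is made up mostly of proximal tubule, whose cells take back filtered sodium, bicarbonate, glucose, amino acids and small proteins and draw their energy from mitochondria rather than from glycolysis. Farther along the nephron lie the thick ascending limb, the distal convoluted tubule and the collecting duct, where salt reabsorption is adjusted to intake. In several rat models of salt-sensitive hypertension T cells and macrophages gather in the kidney. Levels below are read counts normalised to library size (CPM, scaled by the TMM method), listed for HS14 replicates 6 to 10 and then for HS21 replicates 11 to 15. A log2 ratio is HS21 over HS14 with its standard error (SE) from the edgeR fit of the 5 and 5 libraries, and a gene rose or fell where the *P* value adjusted over all genes tested was under 0.05. Where a call depended on single libraries, these were left out one at a time, and the adjusted *P* values without them are given. The tissue was sequenced in bulk without strand information, so fewer cells of a type cannot be told apart from less RNA per cell, nor a gene from one that overlaps it.

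Among the HS14 libraries, replicate 10 stood apart. On the first principal component of the 10 libraries, which held 31.3% of the variance, HS14 replicates 6 to 10 lay at -14.7, -26.6, -28.6, -28.1 and -15.8 and HS21 replicates 11 to 15 at 19.05, 15.3, 2.38, 31.4 and 45.7. On the second component (16.9%) the HS14 values were 15.4, 3.21, 15.6, 17.6 and -32.3 and the HS21 values -8.56, -24.8, -19.3, 12.7 and 20.4. Replicate 10 was thus on the HS14 side of the first axis and the lowest of all 10 on the second. For 3500 of the genes called without it, its position between the mean of the other 4 HS14 libraries (position 0) and the HS21 mean (position 1) had a median of 0.637, and 60.4% of the genes lay nearer to HS21. The same measure for the other HS14 libraries, each from the genes called without that library, gave medians between -0.119 and 0.152. Among the HS21 libraries, replicate 13 lay closest to HS14, with a median position of 0.505, and its immune gene levels were mostly in the HS14 range, while replicates 14 and 15 had the highest immune levels.

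The libraries also differed in a measure of RNA composition. In the study's summary of the sequencing, the share of mapped bases that fall in introns was higher in every HS21 library than in HS14 replicates 6 to 9, and HS14 replicate 10 lay within the HS21 range. Without replicate 10, intron share and time on the diet cannot be told apart. With the share as a covariate in the fit of all 10 libraries, 2 genes passed as raised and 16 as lowered, 12 of them among the calls of the plain fit. Of the 2330 genes called in the plain fit, 2313 (99.3%) kept their sign, with a median ratio of 0.769 between the log2 ratios and of 1.47 between the SEs. Among the genes described below, *Slc16a1*, *Arntl*, *Npas2* and *Per2* kept their calls with this covariate. The other calls did not hold with it, and below the median of each list is given with the covariate as well. The scaling factors were 0.943 to 0.998 in HS14 and 1.04 to 1.08 in HS21. Without these factors the median log2 ratio of all genes moved from 0.014 to 0.13, so ratios close to 0 depend on the scaling.

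**Figure D1:**
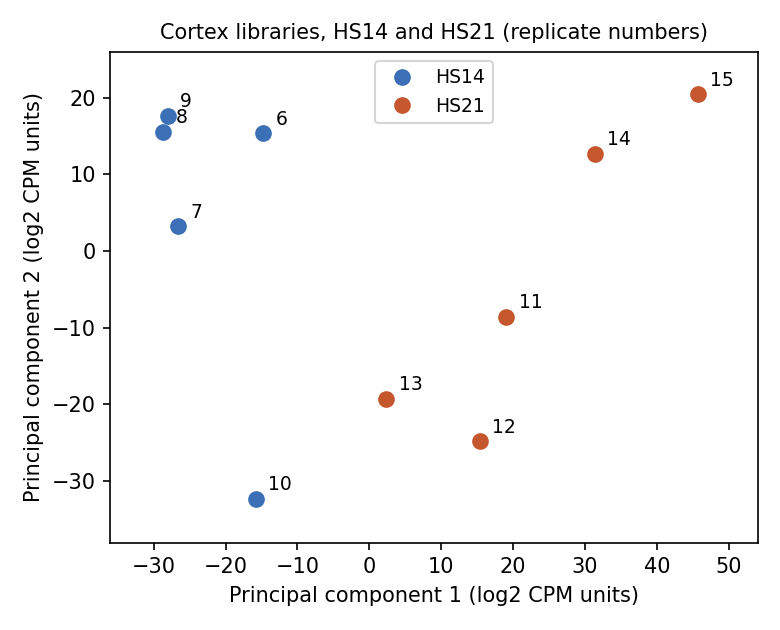
First and second principal component of the 10 Cx libraries (log2 CPM), with replicate numbers beside the points. HS14 replicate 10 lies at -32.3 on the second component, and HS21 replicate 13 is the HS21 library nearest to the HS14 group on the first.

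Of 14395 genes tested, 935 (6.5%) rose and 1395 (9.69%) fell from 14 to 21 d on the HS diet. With total-count scaling 2084 rose and 644 fell, so the direction with more genes depended on the scaling. The balance also differed with gene length. In the shortest length quartile 251 of 3601 genes rose and 185 fell (median log2 ratio 0.057). In the longest, 213 of 3598 rose and 478 fell (median -0.030). The part of gene length in these counts was not tested. The rises were larger than the falls: the median absolute log2 ratio was 0.64 among raised and 0.39 among lowered genes, and 237 raised but 49 lowered genes changed more than 2-fold. Immune genes and antigen presentation made up the groups with the highest list medians, while genes of the proximal tubule, of the citric acid (TCA) cycle and of fatty acid oxidation were on the lowered side. Of the genes raised 917 code for proteins, as do 1371 of those lowered. In 533 genes (3.7%) every HS21 library was above every HS14 library, and in 860 (5.97%) every one was below.

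Without HS14 replicate 10 the test called more genes: 1476 (10.2%) rose and 2048 (14.1%) fell of 14541 tested, and 2210 of the 2330 genes called with it were among them. Without HS21 replicate 13 it called 1182 as raised and 1545 as lowered, and leaving out any other library gave lower counts than the fit of all 10. The number raised was 451 without HS14 replicate 7, 337 without 8, 360 without 9, 473 without HS21 replicate 14 and 505 without 15, and the number lowered was 790, 692, 699, 864 and 881 in the same order. Genes with every HS21 library above or below HS14 numbered 1135 and 1940 without HS14 replicate 10 and 1083 and 1427 without HS21 replicate 13. Complete separation is easier to reach with fewer libraries. With any 1 library left out 599 to 1135 genes were above and 923 to 1940 below, more than the 533 and 860 with all 10. The counts with 1 library left out took scaling factors from the libraries kept. With factors from all 15 Cx libraries, as in the counts of all 10 libraries, 1257 genes were above and 1791 below without HS14 replicate 10. In each of the 10 fits with 1 library left out, 918 of the genes were called.

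Of 15 genes tested that mark leukocytes in general, 10 rose, with a median log2 ratio of 1.02 against 0.014 for all genes (0.97 without HS14 replicate 10, 1.44 with intron share as a covariate), and all 15 ratios were above 0. Summed over the list, the level was 376, 372, 325, 367 and 264 CPM in HS14 and 574, 554, 358, 764 and 1006 CPM in HS21. HS14 replicate 10 had the lowest sum, and among the HS21 libraries replicate 13 lay within the HS14 range while the other 4 lay above it. On LS the mean sum was 223 CPM, below both HS groups. The most abundant member was *Lcp1*, which encodes an actin-bundling protein of blood cells and is named here after its values were seen. Its mean was 66.9 CPM in HS14 and 112 CPM in HS21 (adjusted *P* = 0.0521, and 0.00864 without HS21 replicate 13). The number raised was 6 without HS14 replicate 8. Erythrocyte genes had a median of 0.67 (0.74 with the covariate, 0.11 to 0.86 with 1 library left out) with 0 of 4 called, 1 without HS14 replicate 10, and summed to 786, 663, 563, 618 and 1179 CPM in HS14 and 788, 957, 882, 1033 and 1785 CPM in HS21. HS21 replicates 14 and 15 were the highest of their group here too, while HS14 replicate 10, lowest in leukocyte genes, was the highest of its own. The part of blood left in the tissue was not tested.

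*Ptprc* encodes CD45, the surface phosphatase of all leukocytes, and had 40.6, 42.4, 34.04, 41.1 and 27.1 CPM in HS14 and 70.03, 68.4, 37.8, 93.1 and 125 CPM in HS21 (log2 ratio 1.09 ± 0.26, adjusted *P* = 0.0192, and 0.98 ± 0.27, adjusted *P* = 0.0266, without HS14 replicate 10, and adjusted *P* = 0.0548 without HS14 replicate 8). HS21 replicate 13 was the one HS21 library inside the HS14 range. *Itgb2*, the beta chain shared by the leukocyte integrins, had 23.7, 23.2, 16.7, 20.4 and 15.02 CPM in HS14 and 35.2, 34.8, 26.95, 43.8 and 57.1 CPM in HS21 (log2 ratio 0.99 ± 0.19, adjusted *P* = 0.0113, and 0.90 ± 0.20, adjusted *P* = 0.0106, without HS14 replicate 10), and every HS21 library was above every HS14 library. *Itgal*, the alpha chain that joins it in LFA-1, had 35.2, 33.6, 22.1, 27.9 and 17.3 CPM in HS14 and 54.1, 72.3, 33.5, 79.99 and 127 CPM in HS21 (log2 ratio 1.43 ± 0.31, adjusted *P* = 0.015, and 1.29 ± 0.32, adjusted *P* = 0.0178, without HS14 replicate 10), with HS21 replicate 13 again inside the HS14 range. *Tyrobp*, the signalling adaptor DAP12 of myeloid and NK cells, *Cd53*, a leukocyte tetraspanin, and *Ptprcap*, which binds CD45, also rose (log2 ratios 1.07 ± 0.21, 1.23 ± 0.28 and 2.19 ± 0.44, adjusted *P* = 0.0113, 0.0174 and 0.0117).

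Among markers of T cells, 8 of 12 rose and 1 fell, with a median log2 ratio of 1.46 (1.43 without HS14 replicate 10, 1.84 with intron share as a covariate). The list summed to 70.9, 79.2, 69.1, 77.2 and 57.2 CPM in HS14 and 124, 91.2, 69.95, 171 and 216 CPM in HS21, where replicates 14 and 15 were highest. All 15 listed genes had counts, with *Cd3d*, *Cd5* and *Trat1* too low to be tested. The most abundant was *Cd4*, the helper T cell co-receptor that rat macrophages carry as well. It is named after its values were seen and had a mean of 36.1 CPM in HS14 and 63.8 CPM in HS21 (log2 ratio 0.82 ± 0.24, adjusted *P* = 0.0408, and 0.0533 to 0.0946 without HS14 replicate 6, 7, 8, 9 or 10 or HS21 replicate 11, 14 or 15). The number raised in the list was 3 without HS14 replicate 8 or 9, 4 without HS14 replicate 7 or HS21 replicate 11, 14 or 15 and 5 without HS14 replicate 6.

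*Cd3e*, a signalling chain of the T cell receptor complex, stood at 1.47, 1.08, 1.1001, 1.38 and 1.17 CPM in HS14 and 3.51, 3.597, 1.44, 7.05 and 10.9 CPM in HS21 (log2 ratio 2.08 ± 0.45, adjusted *P* = 0.0143, and 2.05 ± 0.51, adjusted *P* = 0.0174, without HS14 replicate 10). HS21 replicate 13 lay at the HS14 level and the other 4 HS21 libraries lay above it. Its partner chain *Cd3g* rose by a log2 ratio of 1.90 ± 0.41 (adjusted *P* = 0.014), and LS means were 0.335 CPM for *Cd3e* and 0.279 CPM for *Cd3g*. *Cd6*, a co-receptor that tunes T cell activation, had 4.42, 3.53, 4.17, 2.67 and 3.51 CPM in HS14 and 9.17, 6.95, 7.77, 11.7 and 15.6 CPM in HS21 (log2 ratio 1.48 ± 0.23, adjusted *P* = 0.00585, and 1.46 ± 0.26, adjusted *P* = 0.00397, without HS14 replicate 10), here with replicate 13 above the HS14 libraries too. *Tbx21*, the transcription factor T-bet of type 1 helper and cytotoxic T cells, had 1.92, 1.97, 1.33, 1.98 and 1.72 CPM in HS14 and 4.64, 4.77, 2.28, 8.59 and 12.7 CPM in HS21 (log2 ratio 1.88 ± 0.39, adjusted *P* = 0.0129, and 1.85 ± 0.44, adjusted *P* = 0.0147, without HS14 replicate 10). All 5 HS21 libraries were above all 5 HS14 libraries for both *Cd6* and *Tbx21*.

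The lowered member was *Cd28*, the co-stimulatory receptor of T cells, named here after its values were seen. It had 8.899, 14.3, 13.5, 12.2 and 7.02 CPM in HS14 and 6.85, 4.09, 4.96, 6.18 and 5.79 CPM in HS21 (log2 ratio -1.01 ± 0.21, adjusted *P* = 0.0128, and -1.15 ± 0.18, adjusted *P* = 0.00212, without HS14 replicate 10), so that every HS21 library was below every HS14 library, opposite in direction to *Cd3e* in the same samples. Its LS level was 12.2 ± 1.67 CPM (SD, n = 5), well above the levels of *Cd3e* and *Cd3g* on LS. Which cells its reads came from was not tested.

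For cytotoxic and NK cells, 5 of 9 markers rose, *Ccl5*, *Tbx21*, *Nkg7*, *Gzmk* and, named after its values were seen, *Klrk1* (median log2 ratio 1.44, 1.29 without HS14 replicate 10 and 2.07 with the covariate). The most abundant was *Ccl5*, a chemokine released by activated T cells and NK cells, with 5.89, 5.09, 4.34, 4.29 and 4.49 CPM in HS14 and 24.9, 14.1, 5.29, 41.7 and 68.9 CPM in HS21 (log2 ratio 2.68 ± 0.54, adjusted *P* = 0.012, and 2.64 ± 0.62, adjusted *P* = 0.0136, without HS14 replicate 10). Replicates 14 and 15 were highest, replicate 13 was within the HS14 range, and the LS mean was 3.38 CPM. *Nkg7*, a granule membrane protein, and *Gzmk*, a granzyme, had log2 ratios of 1.6 ± 0.43 and 1.53 ± 0.44 (adjusted *P* = 0.0291 and 0.0373). The list summed to 23.2, 21.1, 19.97, 17.5 and 15.7 CPM in HS14 and 51.9, 40.7, 19.8, 83.02 and 137 CPM in HS21, and *Gzma*, *Gzmb*, *Ifng* and *Eomes* were too low to be tested. The number raised was 2 without HS14 replicate 7, 8 or 9 or HS21 replicate 14 or 15 and 3 without HS14 replicate 6. Adjusted *P* for *Nkg7* was 0.0522 to 0.0701 without HS14 replicate 6, 7, 8 or 9 or HS21 replicate 14 or 15, for *Gzmk* 0.0567 to 0.0903 without HS14 replicate 7, 8 or 9 or HS21 replicate 11, 14 or 15 and for *Klrk1* 0.0508 to 0.0701 without HS14 replicate 6, 7, 8 or 9 or HS21 replicate 14 or 15.

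Macrophage and monocyte markers rose in 6 of 15 (5 without HS14 replicate 10), and 14 of the 15 ratios were above 0. The median log2 ratio was 1.02 (1.46 with the covariate). Their sum was 710.1, 605, 819, 846 and 477 CPM in HS14 and 1431, 886, 588, 2082 and 3531 CPM in HS21, a range in HS21 that ran from below most HS14 libraries to several times above them. The most abundant member was *Lyz2*, the lysozyme of myeloid cells, named after its values were seen, with 328, 262, 462, 432 and 229 CPM in HS14 and 817, 406, 244, 1322 and 2414 CPM in HS21 (log2 ratio 1.6 ± 0.52, adjusted *P* = 0.0562, and 0.0152 to 0.0423 without HS21 replicate 12 or 13). *C1qa*, which encodes a chain of complement C1q made by tissue macrophages, had 40.1, 35.1, 35.4, 39.4 and 23.8 CPM in HS14 and 70.7, 51.8, 35.1, 90.5 and 161 CPM in HS21 (log2 ratio 1.23 ± 0.34, adjusted *P* = 0.0325, and 1.11 ± 0.36, adjusted *P* = 0.0477, without HS14 replicate 10), and adjusted *P* = 0.0556 to 0.0742 without HS14 replicate 6, 7, 8 or 9 or HS21 replicate 14 or 15. *Csf1r*, the receptor for the macrophage growth factor, did not pass (log2 ratio 0.61 ± 0.19, adjusted *P* = 0.0507) but did without HS21 replicate 13 (0.0226). The number of markers raised was 2 without HS14 replicate 7, 8 or 9, 3 without HS21 replicate 14 or 15 and 12 without HS21 replicate 13.

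**Figure D2:**
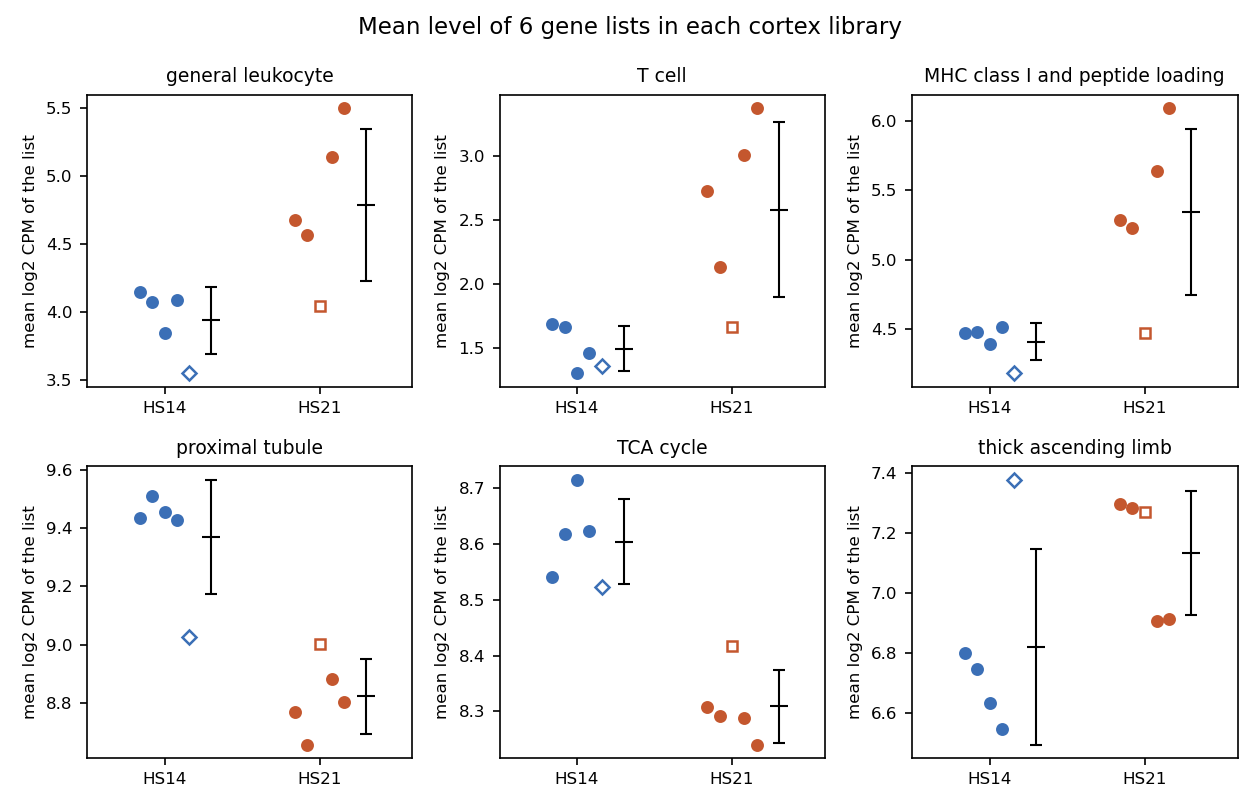
Mean log2 CPM over the genes of 6 lists in each Cx library of HS14 and HS21, with bars for the group mean ± SD (n = 5). The open diamond is HS14 replicate 10 and the open square HS21 replicate 13; the leukocyte list ran from 3.55 to 4.15 in HS14 and from 4.05 to 5.50 in HS21.

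*Irg1* and *Slc11a1* were among the raised genes with the largest ratios. *Irg1*, whose product makes itaconate in activated macrophages, had 0.384, 1.15, 0.174, 0.323 and 0.185 CPM in HS14 and 1.79, 4.77, 0.392, 6.68 and 14.2 CPM in HS21 (log2 ratio 3.66 ± 0.84, adjusted *P* = 0.0174, and 3.46 ± 0.93, adjusted *P* = 0.0232, without HS14 replicate 10, and adjusted *P* = 0.0506 to 0.0511 without HS14 replicate 8 or 9). It had no counts in the 5 LS libraries. *Slc11a1*, a metal ion transporter of phagosomes, had 14.7, 10.5, 11.1, 8.85 and 7.33 CPM in HS14 and 20.8, 19.97, 14.9, 44.6 and 121 CPM in HS21 (log2 ratio 2.07 ± 0.54, adjusted *P* = 0.026, and 1.95 ± 0.59, adjusted *P* = 0.0374, without HS14 replicate 10, and adjusted *P* = 0.0515 to 0.0669 without HS14 replicate 7, 8 or 9 or HS21 replicate 14). *Hk3*, a hexokinase named here because the paper names it, had 6.15, 2.17, 4.52, 2.72 and 1.23 CPM in HS14 and 10.4, 4.77, 2.81, 29.4 and 50.8 CPM in HS21 (log2 ratio 2.54 ± 0.74, adjusted *P* = 0.0392, and 2.32 ± 0.79, adjusted *P* = 0.0559, without HS14 replicate 10, and adjusted *P* = 0.0512 to 0.0981 without HS14 replicate 6, 7, 8, 9 or 10 or HS21 replicate 14 or 15). In a limma voom fit with sample quality weights its adjusted *P* was 0.0921. In all 3 genes HS21 replicates 14 and 15 were highest. In the neutrophil list *Elane* had no counts in these libraries. The list had 0 of 7 tested genes called (6.5% of all genes rose and 9.69% fell). Its median log2 ratio was 0.29 (0.055 without HS14 replicate 10, 1.24 with the covariate). Its summed level had a mean of 34.2 CPM in HS14 and 47.1 CPM in HS21.

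Of 30 tested cytokines, chemokines and their receptors, 10 rose, with a median log2 ratio of 0.74 (0.78 without HS14 replicate 10 and 1.09 with the covariate). *Cxcl9*, a chemokine induced by interferon gamma that draws T cells, had the largest ratio in the list, with 2.75, 1.22, 3.24, 2.08 and 0.739 CPM in HS14 and 11.97, 8.81, 1.697, 58.6 and 60.5 CPM in HS21 (log2 ratio 3.80 ± 0.85, adjusted *P* = 0.0159, and 3.58 ± 0.93, adjusted *P* = 0.0206, without HS14 replicate 10). It reached its highest levels in HS21 replicates 14 and 15, while replicate 13 was inside the HS14 range. *Il12rb1*, a receptor chain for interleukins 12 and 23, had 1.02, 0.271, 0.868, 0.784 and 0.677 CPM in HS14 and 3.51, 2.17, 0.783, 5.87 and 11.3 CPM in HS21 (log2 ratio 2.68 ± 0.62, adjusted *P* = 0.0175, and 2.64 ± 0.70, adjusted *P* = 0.0222, without HS14 replicate 10), with replicate 13 again inside the HS14 range. In the limma voom fit the adjusted *P* of *Cxcl9* was 0.0892. The number raised in the list was 5 without HS14 replicate 8 or HS21 replicate 14 or 15, 6 without HS14 replicate 6, 7 or 9 and 16 without HS21 replicate 13. Among 20 complement genes 3 rose (6.5% of all genes did), *C1qa*, *C1qc* and *Cfp*, which encodes properdin. The median was 0.55 (0.45 without HS14 replicate 10, 1.10 with the covariate). Adjusted *P* for *C1qc* was 0.0408, and 0.0585 to 0.0914 without HS14 replicate 6, 7, 8, 9 or 10 or HS21 replicate 11, 14 or 15, and for *Cfp* it was 0.020, and 0.0503 to 0.0576 without HS14 replicate 8 or 9 or HS21 replicate 14. The count was 0 without HS14 replicate 8 or 9 or HS21 replicate 14, 1 without HS14 replicate 6 or 7 or HS21 replicate 15 and 6 without HS21 replicate 13.

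Genes that cut, move and load peptides onto MHC class I molecules, which show them to cytotoxic T cells, were also on the raised side. Of 13 tested 8 rose, with a median log2 ratio of 1.04 (0.99 without HS14 replicate 10, 1.36 with the covariate). *Psmb8*, a catalytic subunit of the immunoproteasome, had 13.3, 7.26, 6.54, 9.04 and 6.16 CPM in HS14 and 31.5, 25.3, 12.8, 36.2 and 50.6 CPM in HS21 (log2 ratio 1.88 ± 0.33, adjusted *P* = 0.00833, and 1.78 ± 0.36, adjusted *P* = 0.00689, without HS14 replicate 10). HS21 replicate 13 lay just under HS14 replicate 6 and the other 4 HS21 libraries lay above every HS14 library. *B2m*, the light chain of class I molecules and the most abundant member, had 1005, 991, 914, 905 and 779 CPM in HS14 and 1296, 1205, 838, 1687 and 2411 CPM in HS21 (log2 ratio 0.69 ± 0.23, adjusted *P* = 0.0586, and 0.0126 without HS21 replicate 13). The class I genes *RT1-CE5* and *RT1-A2* had log2 ratios of 1.64 ± 0.35 and 1.88 ± 0.55 (adjusted *P* = 0.0132 and 0.0394, the latter 0.0545 to 0.0866 without HS14 replicate 6, 8 or 10 or HS21 replicate 11, 12 or 14), but these genes have near-identical copies and their counts are uncertain. The number raised in the list was 2 without HS14 replicate 8, 3 without HS14 replicate 9 or HS21 replicate 14, 4 without HS14 replicate 7 and 5 without HS21 replicate 11 or 15.

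Interferon response genes rose in 11 of 25 tested, with a median log2 ratio of 1.01 (1.06 without HS14 replicate 10, 1.06 with the covariate). *Gbp2*, a guanylate-binding protein that interferon gamma induces, had 23.2, 14.04, 16.6, 9.55 and 11.3 CPM in HS14 and 41.7, 49.6, 14.3, 79.8 and 122 CPM in HS21 (log2 ratio 2.04 ± 0.46, adjusted *P* = 0.0167, and 1.94 ± 0.52, adjusted *P* = 0.0225, without HS14 replicate 10). Its relative *Gbp5* had 5.12, 4.61, 4.57, 3.78 and 5.11 CPM in HS14 and 11.5, 14.6, 4.503, 23.99 and 49.9 CPM in HS21 (log2 ratio 2.17 ± 0.50, adjusted *P* = 0.0177, and 2.19 ± 0.57, adjusted *P* = 0.021, without HS14 replicate 10, and adjusted *P* = 0.0507 without HS14 replicate 9). Reads of this family may be shared between copies. For both genes HS21 replicate 13 was in the HS14 range and the other 4 HS21 libraries were above all HS14 libraries. The number of list members raised was 3 without HS14 replicate 9, 4 without HS14 replicate 8, 5 without HS14 replicate 7 or HS21 replicate 14 or 15 and 20 without HS21 replicate 13. For MHC class II and its loading 2 of 11 rose, *RT1-Db1* (adjusted *P* = 0.0181, and 0.0542 without HS14 replicate 8) and *RT1-Da* (0.0464, and 0.0691 to 0.106 without HS14 replicate 6, 7, 8, 9 or 10 or HS21 replicate 11, 14 or 15). Over all genes the share raised was 6.5%. The list median was 0.90 (1.55 with the covariate), and 6 rose without HS21 replicate 13.

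The core of the interferon-stimulated response element, GAAANNGAA, was searched on both strands in the RefSeq promoters of build GRCr8, from 250 bases before to 50 after each gene's start. It was in 7 of the 12 class I list promoters that could be matched (58.3%) and in 9.5% of all 27457 promoters. *Psmb8* (chr20:4656982-4657281, minus strand) and *Gbp2* (chr2:234005477-234005776, plus strand) held 1 such match and *Gbp5* (chr2:233910749-233911048, plus strand) held 2. They are printed because these genes moved together in the same libraries, with the matches in capitals. A match is only a run of letters, and binding was not measured. Other letters were searched too. GAS (TTCNNNGAA) was in 8.33% of the class I list promoters and 8.68% of all, and CCAAT in 50% and 37.7%. The E-box (CACGTG), CRE (TGACGTCA) and HNF4 (CAAAGTCCA) letters were in 0% of them (6.65%, 1.91% and 0.375% of all).
Psmb8: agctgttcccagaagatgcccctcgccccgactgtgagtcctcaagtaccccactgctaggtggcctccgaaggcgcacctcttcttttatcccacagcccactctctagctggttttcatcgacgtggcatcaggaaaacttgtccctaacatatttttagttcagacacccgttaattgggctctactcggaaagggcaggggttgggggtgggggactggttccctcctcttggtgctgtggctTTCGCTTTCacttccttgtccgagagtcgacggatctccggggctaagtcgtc
Gbp2: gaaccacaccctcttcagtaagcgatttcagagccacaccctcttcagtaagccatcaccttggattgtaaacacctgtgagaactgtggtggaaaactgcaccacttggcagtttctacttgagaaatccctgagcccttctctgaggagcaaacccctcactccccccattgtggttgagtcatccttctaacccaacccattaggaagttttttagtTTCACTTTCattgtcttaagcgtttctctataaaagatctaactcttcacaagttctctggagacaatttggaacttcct
Gbp5: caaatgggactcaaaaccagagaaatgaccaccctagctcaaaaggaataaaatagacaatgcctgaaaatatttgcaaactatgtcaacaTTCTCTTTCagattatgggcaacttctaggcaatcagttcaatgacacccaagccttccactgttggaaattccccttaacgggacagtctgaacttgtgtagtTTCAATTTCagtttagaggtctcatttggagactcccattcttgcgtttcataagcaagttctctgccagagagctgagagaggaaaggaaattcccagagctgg

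Proximal tubule markers moved the other way. Of 26 tested 17 fell and all 26 had a log2 ratio below 0, with a median of -0.56 (-0.67 without HS14 replicate 10, -0.22 with the covariate). Their summed level was 30004, 31160.3, 29904, 29410.5 and 23107 CPM in HS14 and 18757, 17733, 23669.5, 20361 and 19055 CPM in HS21. HS14 replicate 10 was the lowest of its group and lay near HS21 replicate 13, the highest of the other group. The LS mean was 32147 CPM. No listed marker was without counts, and the most abundant, *Slc34a1*, the phosphate transporter NaPi-2a, had 5741, 5922, 5798, 5539.6 and 4741 CPM in HS14 and 3909, 4129, 6013, 4304 and 4175 CPM in HS21 (log2 ratio -0.31 ± 0.12, adjusted *P* = 0.109, and -0.37 ± 0.12, adjusted *P* = 0.0503, without HS14 replicate 10). For this gene HS21 replicate 13 was the highest of all 10 libraries, and without it the adjusted *P* was 0.00953. The number of markers lowered was 11 without HS14 replicate 8. A separate list for the proximal straight tubule went both ways, with 5 ratios above 0 and 5 below. In it 2 of 10 rose and 3 fell (6.5% and 9.69% of all genes did). Its median was -0.097 (-0.082 without HS14 replicate 10, -0.039 with the covariate), and the number raised was 0 without HS14 replicate 7, 8 or 9.

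*Lrp2* encodes megalin, the receptor by which the proximal tubule takes up filtered proteins. It had 5562, 5269.9, 5207, 5505 and 3597 CPM in HS14 and 2723, 2277, 3005, 2821 and 2346 CPM in HS21 (log2 ratio -0.94 ± 0.13, adjusted *P* = 0.00391, and -1.05 ± 0.092, adjusted *P* = 0.000127, without HS14 replicate 10). Every HS21 library was below every HS14 library, and HS14 replicate 10 lay between the groups. *Cltc*, the clathrin heavy chain of the coated vesicles that carry megalin inward, fell with 734, 852, 839, 828 and 699 CPM in HS14 and 593, 580.3, 559.8, 557 and 489.98 CPM in HS21 (log2 ratio -0.51 ± 0.078, adjusted *P* = 0.00518, and -0.57 ± 0.074, adjusted *P* = 0.000831, without HS14 replicate 10), again without overlap. On LS the means were 5228 CPM for *Lrp2* and 794 CPM for *Cltc*, near those of HS14 replicates 6 to 9.

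*Slc4a4*, the sodium bicarbonate cotransporter NBCe1 that returns bicarbonate to the blood, had 1039.6, 1219, 1512, 1373 and 502 CPM in HS14 and 487, 369, 330.4, 431 and 396 CPM in HS21 (log2 ratio -1.49 ± 0.24, adjusted *P* = 0.00644, and -1.69 ± 0.13, adjusted *P* = 9.98e-05, without HS14 replicate 10). HS14 replicate 10 was close to the HS21 libraries, all of which were below it. The lactate transporter *Slc5a12* and the neutral amino acid transporter *Slc6a19*, both on the luminal side, fell by log2 ratios of -1.03 ± 0.22 and -0.78 ± 0.15 (adjusted *P* = 0.0138 and 0.0111), which were -1.22 ± 0.13 and -0.93 ± 0.066 without HS14 replicate 10. *Slc6a19* had 517, 586, 626, 605 and 320.2 CPM in HS14 and 313, 293, 322, 321 and 297 CPM in HS21, so that 4 HS14 libraries were well above HS21 and replicate 10 was level with it. The glucose transporter *Slc5a2* (SGLT2) and the sodium-hydrogen exchanger *Slc9a3* (NHE3) had log2 ratios of -0.56 ± 0.13 and -0.56 ± 0.14 (adjusted *P* = 0.0167 and 0.0242). These calls were less steady, with adjusted *P* = 0.0504 without HS14 replicate 8 for *Slc5a2* and 0.051 to 0.0647 without HS14 replicate 6, 8 or 9 or HS21 replicate 11 or 15 for *Slc9a3*.

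Other abundant transcripts of the proximal tubule were among the lowered genes with the highest levels. *Hao2*, a peroxisomal hydroxyacid oxidase, had 6609, 6479, 6831, 6143 and 5159.8 CPM in HS14 and 3688, 4221, 5405, 4473 and 3270.4 CPM in HS21 (log2 ratio -0.57 ± 0.14, adjusted *P* = 0.0186, and -0.65 ± 0.13, adjusted *P* = 0.00731, without HS14 replicate 10, and adjusted *P* = 0.0527 without HS14 replicate 8). For *Hao2*, HS14 replicate 10 lay inside the HS21 range and the other 4 HS14 libraries lay above it. *Sepp1*, the plasma selenium carrier, had a log2 ratio of -0.79 ± 0.20 (adjusted *P* = 0.025, and 0.0505 to 0.0656 without HS14 replicate 7, 8 or 9), and *Fbp1*, a gluconeogenic phosphatase, one of -0.63 ± 0.11 (adjusted *P* = 0.00768) with every HS21 library below HS14. *Pck1*, which commits oxaloacetate to gluconeogenesis, had 8371, 8008, 9169, 7106 and 6172 CPM in HS14 and 4986, 4869, 4628, 5537 and 7996 CPM in HS21 (log2 ratio -0.48 ± 0.16, adjusted *P* = 0.0651, and -0.56 ± 0.16, adjusted *P* = 0.0287, without HS14 replicate 10, and adjusted *P* = 0.0217 without HS21 replicate 15).

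The smallest adjusted *P* among the genes described here was that of *Slc16a1*, which encodes MCT1, a carrier of lactate, pyruvate and ketone bodies. Annotated on chromosome 2 of Rnor_6.0, from 207108552 to 207128554, it had 147, 112, 201, 129.99 and 84.6 CPM in HS14 and 29.2, 27.8, 28.7, 29.9 and 27.02 CPM in HS21. The 5 HS21 libraries lay close together and far under all HS14 libraries, of which replicate 10 was the lowest. The log2 ratio was -2.25 ± 0.19 (a fold of 0.2105, adjusted *P* = 0.00046), and -2.39 ± 0.14 without HS14 replicate 10 (adjusted *P* = 3.97e-05). On LS its level was 128 ± 57.7 CPM (SD, n = 5), in the HS14 range. With intron share as a covariate the ratio was -1.74 (adjusted *P* = 0.0146).

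Of 17 tested glucose and monocarboxylate transporters, 8 fell, with a median log2 ratio of -0.56 (-0.68 without HS14 replicate 10, -0.17 with the covariate), and 5 fell without HS14 replicate 8. *Slc5a8*, a sodium-coupled lactate and butyrate transporter, had 89.1, 104, 95.1, 78.5 and 89.3 CPM in HS14 and 67.5, 54.01, 41.4, 50.9 and 58.9 CPM in HS21 (log2 ratio -0.75 ± 0.12, adjusted *P* = 0.00598, and -0.76 ± 0.13, adjusted *P* = 0.00334, without HS14 replicate 10), with no overlap between the groups. *Slc5a1*, the glucose transporter SGLT1 of the late proximal tubule, had 32.1, 25.3, 28.4, 34.5 and 35.2 CPM in HS14 and 20.8, 13.95, 20.2, 22.5 and 17.8 CPM in HS21 (log2 ratio -0.71 ± 0.13, adjusted *P* = 0.0101, and -0.68 ± 0.14, adjusted *P* = 0.00718, without HS14 replicate 10). Every HS21 library was below every HS14 library, and the LS mean of *Slc5a1*, 18.9 CPM, was at the HS21 level. *Slc16a4*, an orphan member of the carrier family, fell too (log2 ratio -0.63 ± 0.15, adjusted *P* = 0.0178), as did the creatine transporter *Slc16a12* (log2 ratio -0.73 ± 0.17, adjusted *P* = 0.0179, and 0.0505 to 0.0528 without HS14 replicate 8 or 9) and *Slc2a2*, the basolateral glucose transporter GLUT2 (log2 ratio -0.74 ± 0.20, adjusted *P* = 0.0291, and 0.052 to 0.0679 without HS14 replicate 6, 7, 8 or 9 or HS21 replicate 12, 14 or 15). The list also held ratios above 0: *Slc2a1* (GLUT1) at 0.30 ± 0.15 and *Slc16a3* (MCT4) at 0.50 ± 0.16, neither of them called (adjusted *P* = 0.175 and 0.0561). Without HS14 replicate 10 both were called (0.0198 and 0.0315), and *Slc16a3* also without HS21 replicate 13 (0.0323).

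In the OM the same step from HS14 to HS21 gave 0 genes past the threshold of 14499 tested with edgeR (0%), 337 raised and 210 lowered at an unadjusted *P* under 0.05, and 20 raised and 11 lowered with DESeq2. OM list medians were 1.80 for cytotoxic and NK cells, 0.90 for T cells, 0.71 for class I and 0.64 for general leukocyte genes, but 0.33 for the proximal tubule, 0.26 for glycine, serine and threonine metabolism and -0.25 for the thick ascending limb, opposite in sign to Cx. Of simulated 2-fold changes 32.5% were recovered in the OM and 74.5% in Cx, so the lack of calls does not show that the OM stayed as it was. A test of the tissue by time interaction over the 20 libraries called 1 gene of 15217 (0.00657%), *Slc16a1*, with all libraries taken as independent. Its log2 ratio was -0.32 ± 0.22 in the OM, and the interaction was -1.95 ± 0.29 (adjusted *P* = 0.0348). OM levels of *Slc16a1* were low, with means of 13.6 CPM at HS14 and 10.8 CPM at HS21. Leaving out a replicate number from both tissues put its adjusted *P* at 0.000529 without replicate 10 and at 0.0788 to 0.316 without any other number from 6 to 15. Without replicate 10 the interaction was called in 122 genes, again with all libraries taken as independent. The ratio was higher in Cx in 34 and lower in 88, and the 122 included *Slc16a12*, *Ogdh*, *Umod* and *Pkm*. With the replicate number as a block in the fit of all 20 libraries the interaction was called in 0 genes. That of *Slc16a1* was -1.90 (adjusted *P* = 0.242). Deviations from the group mean correlated between Cx and OM libraries of equal number with r from -0.0314 to 0.53, and the equal number was the best match within its group for 9 of 10. The labels do not say that equal numbers are one rat, so the call of *Slc16a1* depends on how the libraries are paired. The OM library of replicate 10 had the fewest counts of all (5408126).

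**Figure D3:**
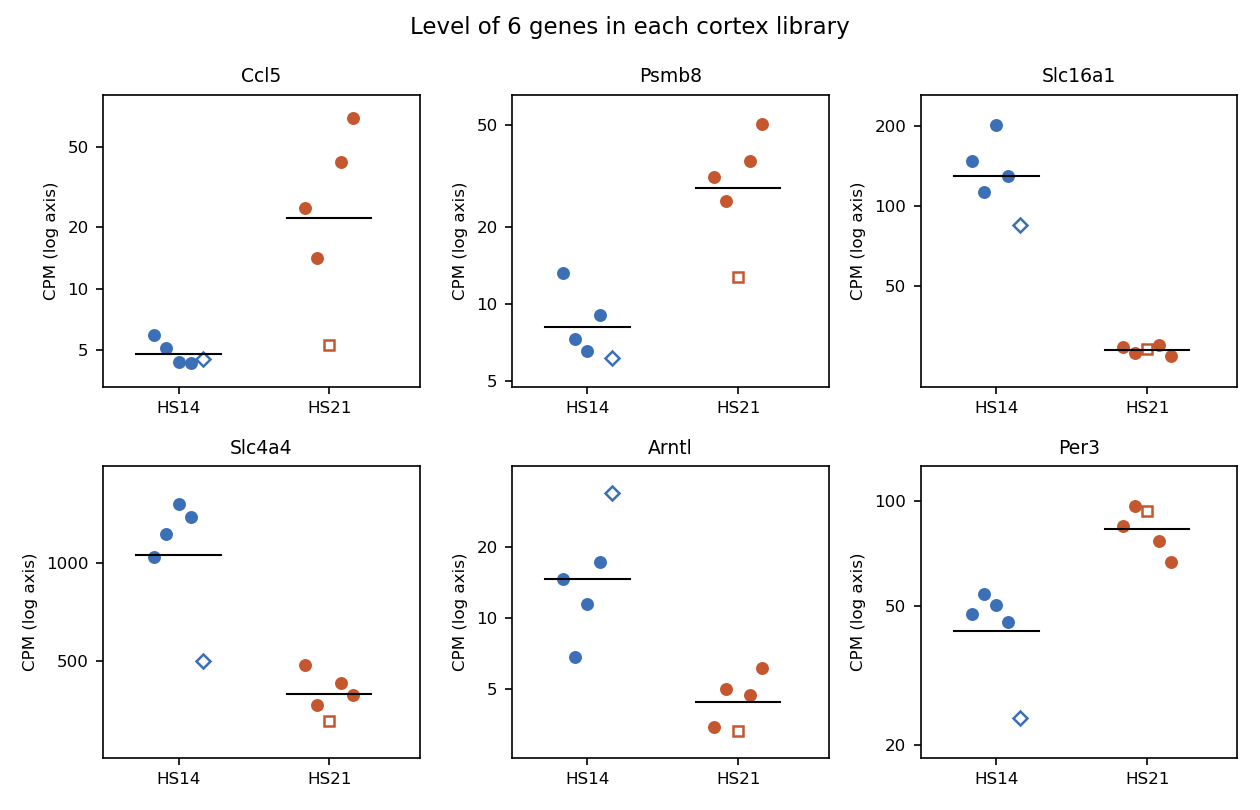
Levels of *Ccl5*, *Psmb8*, *Slc16a1*, *Slc4a4*, *Arntl* and *Per3* in CPM on a log axis in each Cx library of HS14 and HS21, with a line at the geometric mean of each group. The open diamond is HS14 replicate 10 and the open square HS21 replicate 13; *Slc16a1* lay between 27.02 and 29.9 CPM in HS21 and between 84.6 and 201 CPM in HS14.

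In the TCA cycle list, which includes pyruvate dehydrogenase, 17 of 23 tested genes fell and all 23 ratios were below 0 (median -0.31, -0.33 without HS14 replicate 10, -0.23 with the covariate, -0.19 without scaling factors). *Dlat*, a core subunit of pyruvate dehydrogenase, had 158, 177, 184, 177 and 153 CPM in HS14 and 122, 124, 128, 118 and 111 CPM in HS21 (log2 ratio -0.50 ± 0.067, adjusted *P* = 0.0037, and -0.55 ± 0.063, adjusted *P* = 0.000434, without HS14 replicate 10). *Ogdh*, a subunit of the oxoglutarate dehydrogenase complex, had 281, 282, 287, 295 and 214 CPM in HS14 and 189, 177, 206, 185 and 181 CPM in HS21 (log2 ratio -0.54 ± 0.086, adjusted *P* = 0.00598, and -0.63 ± 0.054, adjusted *P* = 0.000124, without HS14 replicate 10). Neither gene had an overlap between the groups, and for *Ogdh* HS14 replicate 10 lay nearest to HS21. *Cs*, citrate synthase, had a ratio of -0.24 ± 0.059 (adjusted *P* = 0.0212, and 0.0513 to 0.0581 without HS14 replicate 8 or 9 or HS21 replicate 14 or 15).

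For fatty acid oxidation 11 of 25 fell (median -0.23, -0.19 with the covariate, -0.11 without scaling factors), and the count was 5 without HS14 replicate 7, 8 or 9, 6 without HS14 replicate 6 or HS21 replicate 14 and 7 without HS21 replicate 15. *Hsd17b4*, a peroxisomal enzyme, had a log2 ratio of -0.75 ± 0.15 (adjusted *P* = 0.012), while *Cpt1a*, which admits fatty acids to mitochondria, had 208, 363, 184, 207 and 206 CPM in HS14 and 338, 232, 249, 191 and 222 CPM in HS21 (log2 ratio 0.074 ± 0.20, adjusted *P* = 0.819). *Ppara*, the receptor that drives these genes, had 52.6, 72.6, 56.3, 52.5 and 27.6 CPM in HS14 and 29.7, 30.6, 31.3, 30.8 and 39.96 CPM in HS21 (log2 ratio -0.69 ± 0.20, adjusted *P* = 0.0381, and -0.87 ± 0.12, adjusted *P* = 0.00112, without HS14 replicate 10, and adjusted *P* = 0.0574 to 0.0885 without HS14 replicate 6, 7, 8 or 9 or HS21 replicate 11, 12, 13 or 14), and its ratio was 0.121 with intron share as a covariate.

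Of 29 nuclear genes of oxidative phosphorylation 7 fell, where 9.69% of all genes did (median -0.12, -0.21 with the covariate and -0.0068 without scaling factors). The count was 4 without HS14 replicate 7, 8 or 9 or HS21 replicate 11, 14 or 15. *Atp5a1*, the alpha subunit of ATP synthase, had 2093, 2303, 2347, 2253 and 2058 CPM in HS14 and 1746, 1662, 1841, 1538 and 1559 CPM in HS21 (log2 ratio -0.41 ± 0.075, adjusted *P* = 0.00932, and -0.45 ± 0.075, adjusted *P* = 0.00295, without HS14 replicate 10). *Uqcrc2* of complex III and *Ndufs1* of complex I had ratios of -0.36 ± 0.070 and -0.34 ± 0.073 (adjusted *P* = 0.0114 and 0.0135), and all 3 genes were lower in every HS21 library than in every HS14 library. *Atp5b*, the beta subunit of ATP synthase and the most abundant of the list, had a ratio of -0.28 ± 0.081 (adjusted *P* = 0.0392, and 0.0525 to 0.0936 without HS14 replicate 6, 7, 8 or 9 or HS21 replicate 11, 12, 14 or 15). Transcripts of the mitochondrial genome had a median of -0.069 over 13 genes (0.047 without scaling factors, -0.21 with the covariate), and *Mt-nd1* had 6941, 11477, 8763, 6600.1 and 9316 CPM in HS14 and 7593, 8929, 7683, 7665 and 7104 CPM in HS21 (log2 ratio -0.15 ± 0.15, adjusted *P* = 0.512), with overlapping groups.

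Genes of glycine, serine and threonine metabolism fell in 13 of 20 tested and rose in 1 (median -0.33, -0.38 without HS14 replicate 10, -0.18 with the covariate). The number lowered was 7 without HS14 replicate 8 and 8 without HS14 replicate 9. All 3 enzymes that make serine from a glycolytic intermediate were among them. *Phgdh*, the enzyme that opens the route, had 175, 194, 219.7, 182 and 128 CPM in HS14 and 102, 107, 136, 127 and 111 CPM in HS21 (log2 ratio -0.63 ± 0.13, adjusted *P* = 0.0121, and -0.74 ± 0.10, adjusted *P* = 0.000817, without HS14 replicate 10), with HS14 replicate 10 inside the HS21 range. *Psat1*, the aminotransferase that follows, had 289, 284, 323, 329 and 269 CPM in HS14 and 139.99, 179, 215, 198 and 214 CPM in HS21 (log2 ratio -0.66 ± 0.11, adjusted *P* = 0.00723, and -0.71 ± 0.12, adjusted *P* = 0.00252, without HS14 replicate 10). *Psph*, the phosphatase that releases serine, had 77.8, 75.7, 82.7, 87.9 and 75.2 CPM in HS14 and 31.2, 39.4, 48.9, 42.2 and 31.01 CPM in HS21 (log2 ratio -1.06 ± 0.12, adjusted *P* = 0.00178, and -1.09 ± 0.13, adjusted *P* = 0.000458, without HS14 replicate 10). Every HS21 library was below every HS14 library for *Psat1* and *Psph*, HS14 replicate 10 included.

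*Gatm*, the mitochondrial enzyme that makes the creatine precursor guanidinoacetate from glycine and arginine, was the most abundant gene of that list. It had 6584, 8162, 7385, 7069 and 5217 CPM in HS14 and 2554, 3736, 4983, 1396 and 1304 CPM in HS21 (log2 ratio -1.30 ± 0.34, adjusted *P* = 0.0262, and -1.40 ± 0.36, adjusted *P* = 0.0197, without HS14 replicate 10), and every HS21 library was below every HS14 library, replicates 14 and 15 the farthest. Its adjusted *P* was 0.0514 to 0.0616 without HS14 replicate 7, 8 or 9 or HS21 replicate 11 or 14. The raised member was *Pipox*, a peroxisomal sarcosine oxidase, at low levels of 1.22, 0.814, 0.811, 0.323 and 0.677 CPM in HS14 and 1.61, 2.05, 1.63, 1.42 and 1.48 CPM in HS21 (log2 ratio 1.10 ± 0.30, adjusted *P* = 0.0313, and 1.05 ± 0.33, adjusted *P* = 0.0435, without HS14 replicate 10, and adjusted *P* = 0.0549 to 0.0682 without HS14 replicate 7, 8 or 9 or HS21 replicate 11, 12, 14 or 15).

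The circadian clock is a loop in which ARNTL (BMAL1) with CLOCK or NPAS2 drives the *Per* genes and *Ciart*, whose products then hold it back. Of 16 clock genes tested 3 fell, *Arntl*, *Npas2* and *Clock*, and 3 rose, *Per2*, *Per3* and *Ciart* (9.69% and 6.5% of all genes did). The other 10, further repressors among them, were not called (list median 0.30, 0.15 without HS14 replicate 10, 0.89 with the covariate). *Arntl* had 14.6, 6.85, 11.5, 17.2 and 33.6 CPM in HS14 and 3.45, 5.02, 3.33, 4.698 and 6.11 CPM in HS21 (log2 ratio -1.90 ± 0.37, adjusted *P* = 0.0113, and -1.49 ± 0.27, adjusted *P* = 0.00407, without HS14 replicate 10). *Npas2* had 14.8, 11.8, 9.32, 11.7 and 30.2 CPM in HS14 and 3.33, 5.21, 6.13, 5.44 and 5.98 CPM in HS21 (log2 ratio -1.58 ± 0.31, adjusted *P* = 0.0113, and -1.21 ± 0.19, adjusted *P* = 0.00212, without HS14 replicate 10), and *Clock* had 169, 164, 203, 188 and 144 CPM in HS14 and 100.5, 98.5, 82.4, 103 and 91.7 CPM in HS21 (log2 ratio -0.87 ± 0.10, adjusted *P* = 0.00173, and -0.94 ± 0.085, adjusted *P* = 0.000141, without HS14 replicate 10). All 3 activators were lower in every HS21 library than in every HS14 library, with HS14 replicate 10 the highest for *Arntl* and *Npas2* but the lowest of its group for *Clock*. With intron share as a covariate the ratios were -2.72 for *Arntl* and -2.32 for *Npas2* (adjusted *P* = 0.0141 for both).

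Among the raised repressors, *Per3* had 47.4, 54.1, 50.4, 44.96 and 23.9 CPM in HS14 and 84.7, 96.6, 93.6, 76.6 and 67.05 CPM in HS21 (log2 ratio 0.92 ± 0.19, adjusted *P* = 0.0121, and 0.75 ± 0.11, adjusted *P* = 0.00162, without HS14 replicate 10). *Per2* had 113, 93.6, 118, 109 and 50.6 CPM in HS14 and 138, 125, 168, 168 and 176 CPM in HS21 (log2 ratio 0.68 ± 0.20, adjusted *P* = 0.0388, and 0.50 ± 0.11, adjusted *P* = 0.00967, without HS14 replicate 10, and adjusted *P* = 0.0532 to 0.0871 without HS14 replicate 6, 7, 8 or 9 or HS21 replicate 11, 13, 14 or 15), and its ratio with the covariate was 1.41 (adjusted *P* = 0.0246). *Ciart*, which encodes a repressor of CLOCK and BMAL1, had 1.47, 3.39, 3.42, 1.06 and 0.492 CPM in HS14 and 9.77, 6.95, 11.03, 6.31 and 6.88 CPM in HS21 (log2 ratio 2.06 ± 0.43, adjusted *P* = 0.0128, and 1.80 ± 0.36, adjusted *P* = 0.00669, without HS14 replicate 10). Each of these genes was higher in every HS21 library than in every HS14 library, and HS14 replicate 10 had the lowest level of all 10. *Per1*, which many stimuli induce, had a ratio of 0.56 ± 0.50 (adjusted *P* = 0.462). *Tef*, an output factor of the clock, stood at 0.55 ± 0.18 (adjusted *P* = 0.055, and 0.0187 without HS14 replicate 10), and its ratio with the covariate was 1.23 (adjusted *P* = 0.025). The paper states that samples were collected at one time of day, and the hour of each library is not given in the sources used here, so its part in these values was not tested. In the OM the ratios were -1.81 ± 0.42 for *Arntl*, -2.02 ± 0.49 for *Npas2* and 0.87 ± 0.25 for *Per3* (adjusted *P* = 0.961 for each).

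The E-box CACGTG, the letters that CLOCK and BMAL1 are known to bind, was in 3 of the 14 clock list promoters that could be matched (21.4%) and in 6.65% of all promoters (both strands, RefSeq, GRCr8). The promoter of *Ciart* (chr2:186112197-186112496, minus strand) held 3 matches, in capitals, and is shown for that. It describes the letters alone. Among the other letters searched, CCAAT was in 64.3% of the clock list promoters and 37.7% of all. GAS and GAAANNGAA were each in 7.14% of the clock list promoters (8.68% and 9.5% of all), and CRE and HNF4 in 0% (1.91% and 0.375% of all).
Ciart: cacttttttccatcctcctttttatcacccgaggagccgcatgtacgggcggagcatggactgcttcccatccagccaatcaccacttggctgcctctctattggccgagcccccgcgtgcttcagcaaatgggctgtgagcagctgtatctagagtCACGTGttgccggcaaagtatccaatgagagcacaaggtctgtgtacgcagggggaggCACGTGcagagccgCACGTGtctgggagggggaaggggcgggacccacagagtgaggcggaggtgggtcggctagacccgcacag

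For the segments after the proximal tubule the result turned on HS14 replicate 10. Of 12 thick ascending limb markers 1 rose (6.5% of all genes did), and 9 rose without that library (10.2% of all genes did). The medians were 0.32 and 0.54, but -0.17 with intron share as a covariate. *Umod*, which encodes uromodulin and was the most abundant, had 1055, 1049.6, 921, 958 and 1769 CPM in HS14 and 2006, 1649, 2087, 1602 and 1508 CPM in HS21 (log2 ratio 0.62 ± 0.18, adjusted *P* = 0.0382, and 0.81 ± 0.11, adjusted *P* = 0.00096, without HS14 replicate 10). HS14 replicate 10 was within the HS21 range and the other 4 HS14 libraries were below it. *Slc12a1*, the cotransporter NKCC2 of the same segment, had 318, 322, 319, 299.6 and 488 CPM in HS14 and 545, 475, 519, 425 and 390.4 CPM in HS21 (log2 ratio 0.43 ± 0.14, adjusted *P* = 0.0616, and 0.57 ± 0.10, adjusted *P* = 0.00341, without HS14 replicate 10). The list summed to 2826, 2648, 2503, 2425 and 4631 CPM in HS14 and 4417, 4417, 4605, 3506 and 3479 CPM in HS21, and LS had a mean of 2669 CPM. The adjusted *P* of *Umod* was 0.056 to 0.0887 without HS14 replicate 6, 7, 8 or 9 or HS21 replicate 11, 12, 13 or 14, and the number of markers raised was 0 without HS14 replicate 6, 7, 8 or 9 or HS21 replicate 11, 12, 13 or 14, 2 without HS21 replicate 15 and 9 without HS14 replicate 10.

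Intercalated cells, which secrete acid or base, showed the same dependence: of 12 markers 0 rose (6.5% of all genes did). Without HS14 replicate 10, 8 rose and 1 fell (10.2% and 14.1% of all genes did). The median went from 0.33 to 0.61 (but -0.33 with the covariate). *Atp6v1b1*, a proton pump subunit of these cells, had 258, 236, 267, 215 and 499 CPM in HS14 and 419.6, 507, 392, 274 and 332 CPM in HS21 (log2 ratio 0.38 ± 0.23, adjusted *P* = 0.278, and 0.64 ± 0.16, adjusted *P* = 0.0171, without HS14 replicate 10), with replicate 10 second only to HS21 replicate 12. The list summed to 2296, 1867, 2314, 1877 and 3562 CPM in HS14 and 3055, 3368, 2946, 2236 and 2478 CPM in HS21. In the distal convoluted and connecting tubule 0 of 12 rose and 1 (*Kl*) fell (9.69% of all genes did), and 4 rose without replicate 10 (10.2% of all genes did; medians 0.15 with and 0.32 without it, -0.045 at the lowest with 1 library left out, -0.33 with the covariate), the latter including *Slc12a3*, the thiazide-sensitive cotransporter, with 1149.9, 1179, 969.6, 979 and 2025 CPM in HS14 and 1535, 2506, 2022, 1340.05 and 1559 CPM in HS21 (log2 ratio 0.50 ± 0.23, adjusted *P* = 0.146, and 0.73 ± 0.17, adjusted *P* = 0.0148, without HS14 replicate 10). In collecting duct principal cells 2 of 11 rose (6.5% of all genes did), *Scnn1a* and *Kcne1* (medians 0.34 and 0.48, -0.15 with the covariate). The count was 1 without HS14 replicate 6, 7, 8 or 9 or HS21 replicate 12, 13 or 15 and 4 without HS14 replicate 10. Adjusted *P* for *Kcne1* was 0.0426, 0.0502 to 0.0974 without HS14 replicate 6, 7, 8, 9 or 10 or HS21 replicate 12, 13 or 15 and 0.0541 in the limma voom fit.

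The epithelial sodium channel, which these distal cells use for the last step of sodium uptake, rose in one subunit. *Scnn1a*, its alpha subunit, had 89.8, 79.9, 108, 106 and 122 CPM in HS14 and 147, 157, 168, 136 and 172 CPM in HS21 (log2 ratio 0.62 ± 0.11, adjusted *P* = 0.00867, and 0.68 ± 0.10, adjusted *P* = 0.0017, without HS14 replicate 10), above HS14 in every HS21 library, with an LS mean of 88.2 CPM. The beta subunit *Scnn1b* and the gamma subunit *Scnn1g* had ratios of 0.39 ± 0.21 and 0.34 ± 0.19 (adjusted *P* = 0.232 and 0.243), which were 0.62 ± 0.15 and 0.50 ± 0.17 without HS14 replicate 10 (0.0167 and 0.0551). Markers of the deeper kidney were checked as a sign of the dissection, and 3 of 7 rose (6.5% of all genes did). These were *Umod*, *Akr1b1* (adjusted *P* = 0.0435, and 0.0583 to 0.0935 without HS14 replicate 6, 7, 8 or 9 or HS21 replicate 11, 12, 14 or 15) and *Slc6a12*. The list median was 0.43 (0.57 without replicate 10, 0.12 with the covariate). All tested markers summed to 1427, 1416, 1309, 1316 and 2336 CPM in HS14 and 2625, 2226, 2684, 2097 and 1969 CPM in HS21. *Umod* was the most abundant of them, and the count was 0 without HS14 replicate 8, 1 without HS14 replicate 6, 7 or 9 or HS21 replicate 11, 12 or 14 and 5 without HS14 replicate 10. *Slc6a12*, the betaine transporter of cells under osmotic load, had 1.66, 1.29, 1.27, 1.84 and 1.48 CPM in HS14 and 2.26, 4.46, 2.09, 3.34 and 4.05 CPM in HS21 (log2 ratio 1.09 ± 0.25, adjusted *P* = 0.0173, and 1.07 ± 0.28, adjusted *P* = 0.0203, without HS14 replicate 10, and adjusted *P* = 0.0501 without HS14 replicate 8). Mean levels of *Umod* in HS14 were 1150.5 CPM in Cx and 9993 CPM in the OM, and those of *Slc34a1* were 5548 and 988 CPM. The part of deeper tissue in these values was not tested.

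In glycolysis 3 of 21 genes rose and 4 fell (6.5% and 9.69% of all genes did; median -0.13, -0.13 with the covariate, -0.016 without scaling factors). Raised were *Pfkfb3*, which makes the activator of phosphofructokinase (log2 ratio 0.72 ± 0.16, adjusted *P* = 0.0164, and 0.80 ± 0.17, adjusted *P* = 0.00807, without HS14 replicate 10), *Pkm*, a pyruvate kinase (log2 ratio 0.57 ± 0.16, adjusted *P* = 0.0346, and 0.75 ± 0.095, adjusted *P* = 0.000742, without HS14 replicate 10), and *Hk3*. *Pkm* had 156, 128, 147, 126 and 236 CPM in HS14 and 262, 262, 226, 213 and 218 CPM in HS21, with HS14 replicate 10 in the HS21 range. Among those lowered, and named after their values were seen, were *Pgam1* (log2 ratio -0.28 ± 0.062, adjusted *P* = 0.0156), *Eno1* (log2 ratio -0.31 ± 0.095, adjusted *P* = 0.0452) and *Pfkfb2* (log2 ratio -0.26 ± 0.063, adjusted *P* = 0.0204). *Hk1*, a general hexokinase, had 52.2, 47.5, 56.3, 53.1 and 84.5 CPM in HS14 and 83.1, 83.2, 76.2, 64.4 and 80.2 CPM in HS21 (log2 ratio 0.39 ± 0.14, adjusted *P* = 0.0827, and 0.55 ± 0.087, adjusted *P* = 0.00212, without HS14 replicate 10), and *Ldha*, a lactate dehydrogenase subunit, a ratio of 0.12 ± 0.10 (adjusted *P* = 0.409, and 0.0451 without replicate 10). Counts raised were 1 without HS14 replicate 6, 7, 8 or 9 or HS21 replicate 14 or 15 and 5 without HS14 replicate 10, and counts lowered 1 without HS14 replicate 7 or HS21 replicate 14 and 2 without HS14 replicate 6, 8 or 9 or HS21 replicate 11, 12 or 15. Adjusted *P* was 0.0545 to 0.0794 without HS14 replicate 6, 7, 8 or 9 or HS21 replicate 11, 12, 14 or 15 for *Pkm*, 0.0688 to 0.10 without HS14 replicate 6, 7, 8 or 9 or HS21 replicate 11, 12, 14 or 15 for *Eno1* and 0.0505 to 0.0515 without HS14 replicate 7 or HS21 replicate 14 for *Pfkfb2*.

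Genes that injured tubules express rose in 6 of 17 tested, where 6.5% of all genes did (median 0.74, 0.62 without HS14 replicate 10, 0.81 with the covariate). *Vim*, the filament protein vimentin, had 81.05, 76.01, 87.3, 90.01 and 72.8 CPM in HS14 and 154, 113, 104, 153 and 184 CPM in HS21 (log2 ratio 0.79 ± 0.14, adjusted *P* = 0.00895, and 0.74 ± 0.15, adjusted *P* = 0.00777, without HS14 replicate 10), above HS14 in every HS21 library. *Cd44*, the hyaluronan receptor, had 8.45, 15.5, 7.64, 10.1 and 11.3 CPM in HS14 and 26.7, 19.04, 13.4, 33.1 and 39.2 CPM in HS21 (log2 ratio 1.31 ± 0.28, adjusted *P* = 0.014, and 1.32 ± 0.32, adjusted *P* = 0.0149, without HS14 replicate 10), with a small overlap. *Havcr1*, which encodes KIM-1, the marker of proximal tubule injury, had 3.91, 4.41, 3.13, 10.2 and 2.15 CPM in HS14 and 16.8, 2.67, 2.28, 37.2 and 27.9 CPM in HS21 (log2 ratio 1.84 ± 0.72, adjusted *P* = 0.0977, and 0.039 without HS21 replicate 13). It was high in HS21 replicates 11, 14 and 15 and low in 12 and 13, and the groups overlapped. *Vim* and *Cd44* are expressed by leukocytes too, and their share of these levels was not tested. The number raised was 3 without HS14 replicate 7, 8 or 9 or HS21 replicate 11 or 14.

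In the extracellular matrix list 2 of 22 rose and 1 fell (6.5% and 9.69% of all genes did), with a median of 0.065 (-0.044 without HS14 replicate 10, 0.40 with the covariate). *Sparc*, a collagen-binding matrix protein, had 423, 454, 411, 420.2 and 418 CPM in HS14 and 542, 542, 516, 507 and 509.99 CPM in HS21 (log2 ratio 0.29 ± 0.053, adjusted *P* = 0.00915, and 0.28 ± 0.055, adjusted *P* = 0.00655, without HS14 replicate 10), a small shift with tight groups that did not overlap. *Timp1*, an inhibitor of metalloproteinases whose locus overlaps *Syn1* on the other strand, had 6.08, 4.88, 4.23, 5.07 and 4.25 CPM in HS14 and 8.22, 6.14, 6.199, 12.4 and 8.49 CPM in HS21 (log2 ratio 0.75 ± 0.20, adjusted *P* = 0.0307, and 0.69 ± 0.22, adjusted *P* = 0.0424, without HS14 replicate 10, and adjusted *P* = 0.0544 to 0.0784 without HS14 replicate 7, 8 or 9 or HS21 replicate 11, 14 or 15). *Col4a1*, a basement membrane collagen, had 653, 666, 567, 707 and 433 CPM in HS14 and 366, 395, 425, 499 and 493 CPM in HS21 (log2 ratio -0.48 ± 0.13, adjusted *P* = 0.0334, and -0.59 ± 0.10, adjusted *P* = 0.00322, without HS14 replicate 10, and adjusted *P* = 0.0625 to 0.0843 without HS14 replicate 6, 7, 8 or 9 or HS21 replicate 11 or 12). HS14 replicate 10 was the one HS14 library of *Col4a1* inside the HS21 range. The number raised was 1 without HS14 replicate 7, 8 or 9 or HS21 replicate 11, 14 or 15, and the number lowered 0 without HS14 replicate 6, 7, 8 or 9 or HS21 replicate 11 or 12 and 3 without HS14 replicate 10.

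Podocytes, the filter cells of the glomerulus, had ratios above 0 in all 11 tested markers, and 4 rose (6.5% of all genes did). Among them were *Cdkn1c*, *Ptpro* and, named after its values were seen, *Clic5*. The list median was 0.30 (0.34 without HS14 replicate 10, 0.15 with the covariate). *Cdkn1c*, a cell cycle inhibitor that mature podocytes express, had 24.2, 18.04, 23.3, 20.6 and 25.6 CPM in HS14 and 43.6, 34.8, 36.7, 37.96 and 38.2 CPM in HS21 (log2 ratio 0.77 ± 0.10, adjusted *P* = 0.0033, and 0.81 ± 0.10, adjusted *P* = 0.000609, without HS14 replicate 10), with no overlap. *Nphs1*, the slit diaphragm protein nephrin, had 152, 120.2, 117, 118 and 148 CPM in HS14 and 184, 175, 170.1, 129 and 152 CPM in HS21 (log2 ratio 0.30 ± 0.11, adjusted *P* = 0.0859, and 0.047 without HS21 replicate 14), with overlapping groups. The list summed to 1052, 882, 945, 899 and 1013 CPM in HS14 and 1269, 1172, 1119, 1085 and 1109.9 CPM in HS21, with *Podxl* the most abundant and no marker without counts. The number raised was 1 without HS14 replicate 7 or 9 or HS21 replicate 11 and 2 without HS14 replicate 6 or HS21 replicate 15. Adjusted *P* for *Ptpro* was 0.028, and 0.0505 to 0.0752 without HS14 replicate 7, 8 or 9 or HS21 replicate 11 or 15, and for *Clic5* it was 0.0483, and 0.0523 to 0.124 without HS14 replicate 6, 7, 9 or 10 or HS21 replicate 11, 12, 14 or 15.

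Ribosomal protein genes rose in 8 of 21 tested by small steps (median 0.21, 0.23 without HS14 replicate 10, 0.18 with the covariate, 0.33 without scaling factors), and the count was 1 without HS14 replicate 8 or 9, 2 without HS14 replicate 6 or 7 or HS21 replicate 14 or 15 and 4 without HS21 replicate 11. *Rpsa*, a protein of the small subunit, had 444, 476, 476, 478 and 547 CPM in HS14 and 565, 563, 539, 615 and 631 CPM in HS21 (log2 ratio 0.26 ± 0.071, adjusted *P* = 0.030, and 0.30 ± 0.061, adjusted *P* = 0.00759, without HS14 replicate 10, and adjusted *P* = 0.0641 to 0.0724 without HS14 replicate 6, 7, 8 or 9 or HS21 replicate 14 or 15). HS14 replicate 10 was the highest of its group and inside the HS21 range. Ribosomal genes have many near-identical copies, so their counts are uncertain. Other raised genes with high levels were *Tmsb4x*, the actin-binding thymosin beta 4 of leukocytes and other cells, with 319.6, 313, 323, 347 and 363 CPM in HS14 and 670.3, 605, 352, 732 and 844 CPM in HS21 (log2 ratio 0.94 ± 0.18, adjusted *P* = 0.0112, and 0.96 ± 0.20, adjusted *P* = 0.00822, without HS14 replicate 10), and *Dnase1*, a secreted nuclease, with a ratio of 0.54 ± 0.13 (adjusted *P* = 0.0208, and 0.054 without HS14 replicate 9). For *Tmsb4x* 4 HS21 libraries lay far above HS14, and replicate 13 lay within its range. *Sema3g*, a semaphorin, rose by a ratio of 0.39 ± 0.10 (adjusted *P* = 0.0284, and 0.0522 to 0.0758 without HS14 replicate 6, 7, 8 or 9 or HS21 replicate 11 or 12).

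The largest ratio of all named genes was that of *Robo3*, a receptor of axon guidance, with 1.22, 1.83, 0.695, 1.798 and 1.72 CPM in HS14 and 2.74, 67.2, 90.6, 66.7 and 1.42 CPM in HS21 (log2 ratio 4.96 ± 1.04, adjusted *P* = 0.0128, and 5.01 ± 1.2, adjusted *P* = 0.0149, without HS14 replicate 10). HS21 replicates 12, 13 and 14 were far above HS14, while replicates 11 and 15 were close to its range, a pattern unlike that of the immune genes. In the limma voom fit its adjusted *P* was 0.202. *Fam50a*, at the other end, had 0.832, 0.678, 16.8, 7.79 and 0.923 CPM in HS14 and 0.595, 0.6201, 0.979, 0.927 and 0.579 CPM in HS21 (log2 ratio -2.87 ± 0.89, adjusted *P* = 0.0483, and -3.15 ± 0.84, adjusted *P* = 0.0227, without HS14 replicate 10, and adjusted *P* = 0.0649 to 0.131 without HS14 replicate 8 or 9 or HS21 replicate 11, 12, 13, 14 or 15). Its adjusted *P* in the limma voom fit was 0.189. Its ratio came from HS14 replicates 8 and 9, since the other 8 libraries were all below 1 CPM. *Arfgef3*, a member of the family of ARF exchange factors, had 67.99, 131, 133, 126 and 101 CPM in HS14 and 49.96, 59.9, 20.4, 27.9 and 15.9 CPM in HS21 (log2 ratio -1.69 ± 0.34, adjusted *P* = 0.012, and -1.73 ± 0.37, adjusted *P* = 0.00963, without HS14 replicate 10), below HS14 in every HS21 library. *Ndrg1*, a stress-responsive gene with high levels, had 1982, 1792, 2386, 2661 and 2310.5 CPM in HS14 and 914, 879, 901, 1233 and 1645 CPM in HS21 (log2 ratio -1.005 ± 0.18, adjusted *P* = 0.00916, and -1.003 ± 0.20, adjusted *P* = 0.00611, without HS14 replicate 10), also with no overlap.

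Further lowered genes with large ratios and no overlap between the groups were *Cnr1*, the cannabinoid receptor (log2 ratio -1.67, adjusted *P* = 0.0184), *Sfxn2*, a mitochondrial sideroflexin (log2 ratio -1.47, adjusted *P* = 0.00598), and *B3gat1*, a glucuronyltransferase (log2 ratio -1.44, adjusted *P* = 0.00534). Of these *Sfxn2* had 11.7, 7.66, 13.5, 10.5 and 12.99 CPM in HS14 and 3.04, 2.605, 5.02, 5.87 and 3.86 CPM in HS21, and *B3gat1* had 17.8, 17.6, 13.9, 24.5 and 16.3 CPM in HS14 and 3.81, 6.39, 9.01, 8.35 and 5.79 CPM in HS21. HS14 replicate 10 was inside the range of the other HS14 libraries for both, unlike its place for *Slc4a4* and *Slc6a19*. *Kl*, which encodes klotho, the co-receptor for FGF23, had 497, 506, 555, 517 and 450.4 CPM in HS14 and 379, 453, 462, 342 and 365 CPM in HS21 (log2 ratio -0.34 ± 0.095, adjusted *P* = 0.0336, and -0.39 ± 0.10, adjusted *P* = 0.0169, without HS14 replicate 10, and adjusted *P* = 0.0601 to 0.0874 without HS14 replicate 6, 7, 8 or 9 or HS21 replicate 11, 14 or 15), with HS14 replicate 10 the lowest of its group and inside the HS21 range.

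Set beside LS without a test, the groups of genes stood in different orders. The mean log2 CPM of the leukocyte list was 3.29 ± 0.12 (SD, n = 5) on LS, 3.94 ± 0.25 at HS14 and 4.79 ± 0.56 at HS21, and that of the T cell list 0.57 ± 0.29, 1.49 ± 0.18 and 2.58 ± 0.69. Both were lowest on LS and highest at HS21, with the widest spread at HS21. The class I list stood at 4.12 ± 0.17, 4.41 ± 0.14 and 5.34 ± 0.60, and the interferon list, lowest at HS14, at 3.42 ± 0.21, 3.14 ± 0.29 and 4.09 ± 0.64. Proximal tubule markers were at 9.56 ± 0.038 on LS, 9.37 ± 0.20 at HS14 and 8.82 ± 0.13 at HS21, and the TCA cycle list at 8.64 ± 0.022, 8.60 ± 0.077 and 8.31 ± 0.066. For these lists HS14 was near LS, and HS21 lay lower. Fatty acid oxidation genes had 7.42 ± 0.029, 7.11 ± 0.086 and 6.89 ± 0.11, with HS14 already below LS.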

How the data were processed

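Messenger RNA was measured in Cx libraries that were poly(A)-selected, paired-end and not strand-specific. By the submitters' notes, the authors aligned clean reads to Ensembl Rnor_6.0 with HISAT2 2.0.5, assembled transcripts with StringTie 1.3.3b and counted read pairs per gene with featureCounts 1.5.0-p3. The deposited values are counts, whole numbers without normalization, from which every result comes. FPKM values, scaled by the authors by gene length and size factors, served in an alternative only, and the gene length deposited in bases was read but enters no test. The authors' comparison columns, which hold group means, fold changes and P values of their own tests, were not used.

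Genes were tested with edgeR 4.0.16 in R 4.3.3 (filterByExpr, TMM scaling, quasi-likelihood F-test, Benjamini-Hochberg adjustment over all genes tested, threshold 0.05). CPM on the log2 scale used a prior count of 2. Intron shares came from the study's sequencing summary. The tests were tried on simulated data. DESeq2 1.42.0, limma 3.58.1 (voom with sample quality weights, and FPKM with pseudocounts of 1 and 0.1), other scalings, filters and sample sets were alternatives. A gene could be named when it was among the 12 raised and 12 lowered with the largest ratios, or the 6 and 6 with the highest levels, of the called genes that code for proteins, average 1 CPM or more, have a gene name other than a clone or locus number and keep their call without HS14 replicate 10. The first gene of a list and up to 3 called members with the largest ratios, and genes that the paper names, could be named as well. Members and lists were chosen with earlier results of these data known. Of 834 listed symbols 807 were found in the table. Promoters are from RefSeq GRCr8, since the sequence of Rnor_6.0 was not at hand. Results for some genes are not reported here.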

Additional observations from a re-analysis of the deposited data

Results flagged for a closer look

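A library was far from the other 4 of its group in 29 of 354 groups of values tested. The measure was the ratio of its gap to the group's range (critical ratio 0.71). Of the 29, 22 concern HS14 replicate 10. Chance gives about 1 in 20 for a single group, but these values come from the same 10 libraries. The groups are not independent, so 29 of 354 cannot be set against that rate.

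HS14 replicate 10 stood apart, in mean log2 CPM, in the lists of proximal tubule (9.03), distal convoluted and connecting tubule (7.22) and extracellular matrix (5.15). In log2 CPM it was the lowest of its group for *C1qa* (4.58), *Lrp2* (11.81), *Slc5a12* (8.17), *Slc6a19* (8.32), *Slc5a2* (8.88), *Slc16a12* (8.48), *Ogdh* (7.74), *Per2* (5.66), *Per3* (4.59), *Tef* (6.43), *Ctsa* (10.33), *Ctsb* (10.48), *Lcp1* (5.66) and *Kif11* (5.77). It was the highest for *Umod* (10.79), *Slc12a1* (8.93), *Slc12a3* (10.98), *Atp6v1b1* (8.96) and *Rps16* (7.95).

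HS14 replicate 7 was the highest of its group in the fatty acid oxidation list (7.25) and in *Cpt1a* (8.50). In HS21, replicate 13 was the highest for *Slc34a1* (12.55) and *Slc5a2* (9.11), replicate 11 the lowest for *Npas2* (1.79), replicate 15 the highest for *Ppara* (5.32), and replicate 12 had the highest share of mitochondrially encoded counts (18.1%). Between the tissues the change of *Slc16a1* was called as different with all libraries taken as independent (interaction -1.95 on the log2 scale, edgeR adjusted *P* = 0.0348). With the replicate number as a block it was not called (-1.90, adjusted *P* = 0.242).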

How the results depend on the processing

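Directions held more widely than calls. Of the 152 called genes taken for naming or added by hand, DESeq2 kept 152, limma voom 147, limma on FPKM 121 and 125 (pseudocounts 1 and 0.1), RLE size factors 147, total-count scaling 133, no filter 135, the robust fit 144, all 15 Cx libraries 151 and the intron share covariate 4. With 1 library left out 80 (HS14 replicate 8) to 142 (HS21 replicate 13) were kept, 140 without HS14 replicate 10, and a minimum of 10 counts kept 144 of 144 that could be tested. The covariate reversed *Ctsa* (0.00745), *Kif11* (0.098) and *Ppara* (0.121).

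Genes raised numbered 1469 with DESeq2, 1774 with limma voom, 2084 with total-count scaling, 1500 in the fit of all 15 Cx libraries and 2 with the covariate. Genes lowered numbered 2152 with limma voom, 644 with total-count scaling and 16 with the covariate. With 1 library left out, 337 to 1476 were raised and 692 to 2048 lowered. Genes with every HS21 library above HS14 numbered 1211 with total-count scaling and 599 to 1135 with 1 library left out, and those below numbered 333 and 923 to 1940. Separation is easier to reach with fewer libraries, so a rise alone is not a trait of the library left out. Total-count scaling put the median ratio of all genes at 0.13 instead of 0.014; what caused the other changes was not tested. The position of HS14 replicate 10 was 0.616 to 0.686 over 3 settings chosen after the data were seen.

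In the OM DESeq2 called 31 genes, and edgeR 0 to 1 with 1 library left out. The interaction was called in 22 genes with DESeq2, in 0 with total-count scaling and in 0 to 122 with a replicate number left out. In the replicate block fit it was called in 0 genes, and *Slc16a1* had -1.90 (adjusted *P* = 0.242).

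With 14641135 to 21842843 counts per library, genes of about 1 CPM rest on few reads, and small changes in them could not be detected.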
